A study of Homo sapiens and Mus musculus with 16 samples.

Results

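The miR-34 miRNAs and a set of mRNAs that the tumor suppressor p53 switches on were followed in liver cells given AcFBE, an ethanol extract of the fruiting body of the medicinal fungus *Antrodia cinnamomea*. The 9 members were chosen by name: miR-34a and miR-34c-5p, out of 385 miRNAs listed for SK-HEP-1 cells, and the mRNAs of *CDKN1A*, *MDM2*, *GADD45A*, *BTG2*, *SESN1*, *RRM2B* and *TP53I3*, out of 22314 genes in the mRNA table. All 9 were found. SK-HEP-1, an established human line from a liver cancer patient, and BNL CL.2, a mouse liver line, received the vehicle DMSO alone (untreated, U) or 0.5 mg/ml AcFBE dissolved in DMSO (treated, T) for 2 or 4 hr, which gave the conditions 2U, 2T, 4U and 4T. Small RNA of SK-HEP-1 was sequenced in 2 batches, the second from another culture and on another sequencer, so each condition had 2 libraries. Small RNA of BNL CL.2 and mRNA of SK-HEP-1 had 1 library per condition and no replicate.

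p53 is a transcription factor that is stabilized by DNA damage and other stress and then activates genes of growth arrest, repair and cell death. Its direct targets include the miR-34 genes, and miR-34 in turn lowers cell cycle and survival proteins through short matches in their mRNAs. The mRNA members act at different points: *CDKN1A* encodes the cell cycle inhibitor p21, *BTG2* an antiproliferative protein, *GADD45A* a DNA damage and stress protein, *SESN1* a sestrin that restrains mTORC1, *RRM2B* a subunit of ribonucleotide reductase used in DNA repair, *TP53I3* an oxidoreductase tied to cell death, and *MDM2* the ubiquitin ligase that removes p53.

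The mature sequences show which miRNAs of the family can read the same sites. RefSeq entries (GRCh38.p14) were matched for 5 of the 6 names looked for, and the seed, bases 2 to 8, is in capitals. The tables use older names, in which an asterisk marks the minor arm. miR-34a and miR-449a shared the seed, whereas the seed of miR-34b* was that of miR-34a moved by 1 base, and miR-34a* and miR-34b, from the opposite arms, had other seeds. miR-34c-5p had no entry.
hsa-miR-34a: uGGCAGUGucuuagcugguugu
hsa-miR-449a: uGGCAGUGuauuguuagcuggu
hsa-miR-34b*: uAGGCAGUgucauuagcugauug
hsa-miR-34a*: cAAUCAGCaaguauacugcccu
hsa-miR-34b: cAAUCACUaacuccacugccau

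On GRCh37, the build of the files, *MIR34A* lies on chromosome 1 from 9211727 to 9211836 on the minus strand, inside the long noncoding gene *MIR34AHG*. *MIR34C* lies on chromosome 11 from 111384164 to 111384240 on the plus strand, inside *MIR34BHG* and opposite to *BTG4*, itself a relative of the member *BTG2*. *CDKN1A* lies on chromosome 6 from 36644237 to 36655114, *GADD45A* on chromosome 1 from 68150884 to 68154017 and *TP53I3* on chromosome 2 from 24300303 to 24308731.

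The miRNA counts summed to between 173239 and 881237 reads per SK-HEP-1 library and between 670185 and 1118579 per BNL CL.2 library, and in SK-HEP-1 every treated library had fewer than its untreated partner. Counts were expressed as RPM, reads of a miRNA per 1000000 quality reads of its library. Of 8 hepatocyte markers 7, *ALB* and *HNF4A* among them, were listed at 0 FPKM in all 4 mRNA libraries, in a table that also lists some widely used genes at 0, and *SERPINA1* stood at 8.59 to 18.7 FPKM. miR-122, the hepatocyte miRNA, had 0 to 70 reads per SK-HEP-1 library. The endothelial genes *PECAM1*, *VWF*, *KDR* and *CDH5* were also listed at 0, and the mesenchymal gene *VIM* stood at 6465 to 13625 FPKM.

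In RPM, miR-34a was lower after 2 hr and higher after 4 hr of AcFBE in both batches, a pattern that did not pass the test given below, whereas most miRNAs were lower at both times. In the first batch it stood at 322 RPM in 2U (2296 reads) and 142 RPM in 2T (1095 reads), and at 298 RPM in 4U (3508 reads) and 397 RPM in 4T (3642 reads). In the second batch it stood at 318 RPM in 2U (6696 reads) and 115 RPM in 2T (1962 reads), and at 56.5 RPM in 4U (1142 reads) and 169 RPM in 4T (2382 reads). The untreated libraries were alike except 4U of the second batch, which lay 5.62-fold below 2U of its own batch, so the 4U and 4T values overlapped between batches while the 2U and 2T values did not. The log2 ratio of treated over untreated was -1.18 and -1.46 at 2 hr and 0.41 and 1.58 at 4 hr, against medians over all miRNAs above 0 in both libraries of -1.77 and -1.15 at 2 hr and -1.56 and -1.02 at 4 hr.

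**Figure D1:**
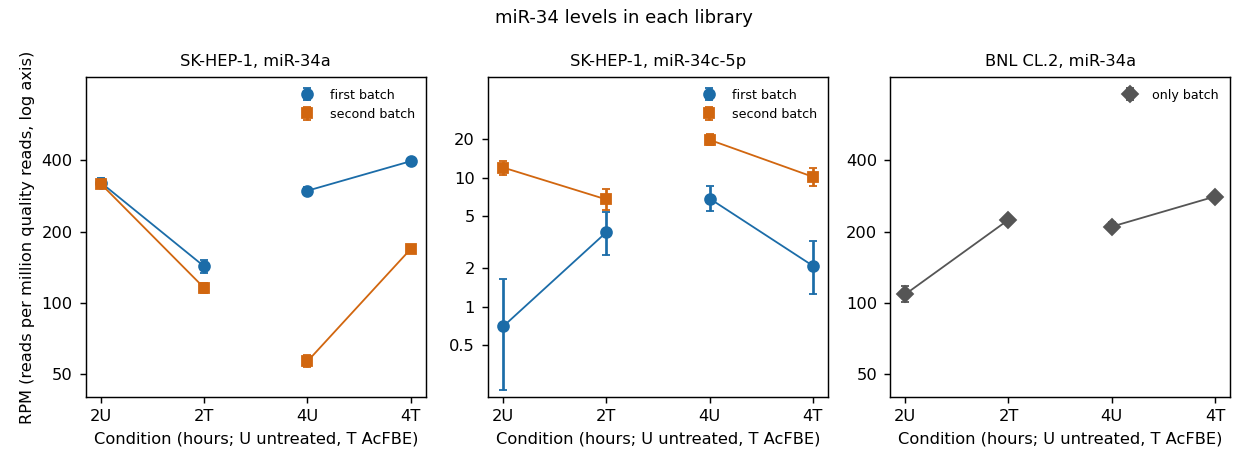
Levels of miR-34a and miR-34c-5p in the 8 SK-HEP-1 libraries and of miR-34a in the 4 BNL CL.2 libraries, in RPM on a log axis; bars are exact Poisson 95% intervals, which cover counting error only, and lines join the untreated and treated library of a batch and time. At 2 hr miR-34a of SK-HEP-1 was lower in the treated library (322 and 142 RPM, 318 and 115 RPM) and at 4 hr higher (298 and 397 RPM, 56.5 and 169 RPM).

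Against the background of miRNAs that were mostly lower in treated cells, miR-34a moved up in rank at 4 hr. Of the 196 miRNAs tested, those averaging 1 RPM or more, 3.06% were higher in 4T than in 4U in both batches and 77% were lower. At 2 hr 83.7% were lower in 2T than in 2U in both batches and 1.02% were higher. Both at once held for 5 miRNAs (2.55%), which were miR-34a, miR-93, miR-122, miR-423-5p and miR-574-5p, the last 4 named after their values were seen. In the second batch miR-122 met this at the edge of detection, with 4, 0, 0 and 2 reads in 2U, 2T, 4U and 4T. By single pairs, the 4 hr ratio of miR-34a ranked 13th from the top of 222 miRNAs in the first batch and 6th of 218 in the second. At 2 hr it ranked 68th of 219 and 163rd of 228. As a share of the summed miRNA counts, miR-34a made up 0.429% of 4U but 1.57% of 4T in the first batch. The second batch had 0.214% and 1.37%. At 2 hr, 2U and 2T had shares of 0.261% and 0.490% (first batch) or 0.979% and 0.893% (second batch), so the direction at 2 hr rested on what the counts were scaled to.

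The changes of miR-34a did not pass the test across miRNAs. edgeR's quasi-likelihood test with batch as a block gave a log2 fold change of -1.36 (standard error 0.78, adjusted p = 0.285) at 2 hr and 0.83 (standard error 0.78, adjusted p = 0.468) at 4 hr, n = 2 libraries per condition. The change at 4 hr exceeded that at 2 hr by 2.19 (standard error 1.11, adjusted p = 0.954 in edgeR with Benjamini-Hochberg adjustment over 196 miRNAs). Over both times the log2 fold change was -0.27 (standard error 0.67, adjusted p = 0.718 in edgeR). Relative to the median of all miRNAs tested, -1.55 at 2 hr and -1.35 at 4 hr, miR-34a lay 0.19 higher at 2 hr and 2.18 higher at 4 hr. No miRNA was called in any of the 4 comparisons (0 of 196, 0%), with 91, 44, 25 and 7 at an unadjusted p under 0.05 over both times, at 2 hr, at 4 hr and for the difference; DESeq2 called 95, 6, 6 and 0, and miR-34a was not among them. The 0 over both times stood close to the threshold, with a smallest adjusted p of 0.0527 in edgeR, and edgeR called 100 miRNAs when scaled to reads after the tRNA filter, 60 with each pair of libraries as the block and 20 with a filter of mean 10 RPM. Without 4U of the second batch the 4 hr value was 0.10, and without 4U of the first it was 1.98. Without 2U of the second batch the 2 hr value was -0.59. The difference between the times ranged from 1.44 without 4U of the second batch to 3.32 without 4U of the first.

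**Figure D2:**
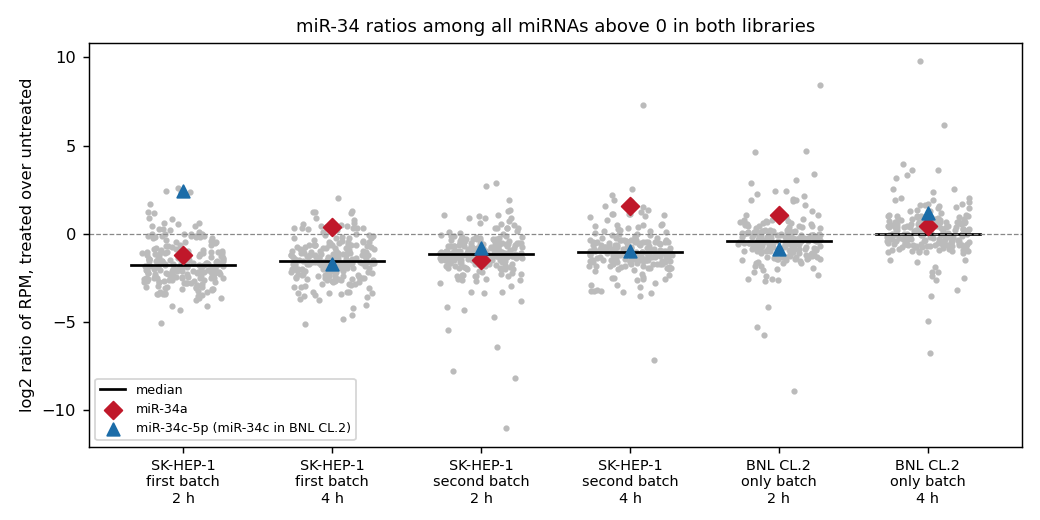
Log2 ratio of RPM, treated over untreated, of each miRNA above 0 in both libraries of a pair (gray points), with the median (line), miR-34a (diamonds) and miR-34c-5p, or miR-34c in BNL CL.2 (triangles). miR-34a lay near the median at 2 hr in SK-HEP-1 and above it at 4 hr, at 0.41 and 1.58 against medians of -1.56 and -1.02.

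The opposite arm of the same hairpin was lower in RPM at 2 hr, like miR-34a, but did not follow it at 4 hr. miR-34a* had 9, 2, 25 and 6 reads in 2U, 2T, 4U and 4T of the first batch and 15, 4, 51 and 7 reads in the second. It had fewer RPM with AcFBE in each of the 4 pairs, and its log2 fold change over both times was -1.97 (standard error 0.55, adjusted p = 0.0527 in edgeR). At 2 hr its log2 ratio was -2.28 (exact 95% interval -5.53 to -0.007) and -1.60 (-3.65 to 0.05), where that of miR-34a was also negative. At 4 hr its log2 ratio was -1.70 (-3.27 to -0.38) and -2.35 (-3.73 to -1.20), where that of miR-34a was positive. These intervals cover counting error only. The library that was low in miR-34a, 4U of the second batch, had the most miR-34a*, which made up 4.27% of the reads of both arms (exact 95% interval 3.20 to 5.58). In the other 7 libraries that share was 0.164 to 0.708%.

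miR-34c-5p was scarce and its direction at 2 hr differed between batches. It had 5, 29, 81 and 19 reads in 2U, 2T, 4U and 4T of the first batch, or 0.701, 3.77, 6.87 and 2.07 RPM. In the second batch it had 252, 115, 396 and 143 reads, the lowest level being 6.76 RPM in 2T and the highest 19.6 RPM in 4U. All levels of the second batch but that of 2T lay above the highest of the first, 6.87 RPM. The log2 ratio at 2 hr was 2.43 in the first batch (exact 95% interval 1.04 to 4.15 from 34 reads) and -0.82 in the second, whereas at 4 hr it was -1.73 and -0.95. In edgeR the log2 fold change was 0.52 (standard error 0.95, adjusted p = 0.681) at 2 hr and -1.36 (standard error 0.91, adjusted p = 0.356) at 4 hr, and the difference between the times was -1.88 (standard error 1.34, adjusted p = 0.954), opposite in sign to that of miR-34a.

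The rest of the family was at the edge of detection. miR-34b had 0 to 3 reads in any SK-HEP-1 library. miR-34b* was listed in the first batch only, with 3 reads in 2U, and miR-449a likewise, with 5 reads in 2U and 2 in 4U. The smallest count above 0 in any library was 2, so a 0 can stand for 1 read. Most reads of the family were thus miR-34a, with 22723 in the 8 libraries against 1040 of miR-34c-5p. The share was lower in 4U of the second batch, with 1142 reads of miR-34a and 396 of miR-34c-5p. Among 11 other miRNAs linked to p53, 4 were tested (miR-192, miR-107, miR-145 and miR-15a), and 0 passed. All 4 had a negative log2 fold change over both times, from -1.59 for miR-107 to -0.83 for miR-15a, as did 192 of the 196 miRNAs tested.

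The 3 miRNAs that ran most like miR-34a over the 8 SK-HEP-1 libraries on log2(RPM + 1) were miR-27a* (Pearson r 0.825, Spearman rho 0.738), miR-126 (r 0.824, rho 0.595) and miR-22 (r 0.814, rho 0.667), picked as the highest of 195 candidates. The libraries share depth, batch and the general shift toward lower values, so these are descriptions of 8 libraries.

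In the mouse line, miR-34a was higher in the treated library at both times. It stood at 109 RPM in 2U (644 reads) and 224 RPM in 2T (2369 reads), and at 210 RPM in 4U (1847 reads) and 281 RPM in 4T (2498 reads). The log2 ratio was 1.05 at 2 hr (exact 95% interval 0.92 to 1.18) and 0.42 at 4 hr (0.34 to 0.51), intervals that cover counting error only. The median over the miRNAs of that line was -0.38 and -0.01, and 8.33% of 216 miRNAs were at least 2-fold higher at 2 hr. 2U was the lowest of the 4 libraries, and 4U lay 1.93-fold above it. miR-34c of BNL CL.2 had 3 to 7 reads per library and miR-34b-3p 13 to 23. At 2 hr the ratio of RPM thus had the opposite sign to that of both SK-HEP-1 batches. Scaled to miRNA counts, it was 1.14 in BNL CL.2 against 0.91 in the first SK-HEP-1 batch and -0.13 in the second, so the opposite sign to the first batch was lost. The difference was not tested, and cell line and species cannot be told apart in it. By their titles the BNL CL.2 libraries ran on the sequencer of the second SK-HEP-1 batch. The study's library statistics and the caption of its scatter plots also name that sequencer, whereas its methods name that of the first batch.

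Of the mRNA members, *CDKN1A* and *GADD45A* were lower in the treated library at both times, *TP53I3* was higher in the treated library at 2 hr only, and the other 4 stayed under 1 FPKM in every library. FPKM, fragments scaled to transcript length and to the mapped reads of the library, is a level per length, and genes compared between libraries had at least 1 FPKM in 1 of them and more than 0 in both. *CDKN1A* stood at 193 FPKM in 2U and 20.9 FPKM in 2T, and at 89.1 FPKM in 4U and 30.7 FPKM in 4T. Both treated values lay below both untreated ones, and the untreated values themselves differed 2.17-fold. The treated value was 9.24-fold lower at 2 hr (log2 ratio -3.21) and 2.91-fold lower at 4 hr (-1.54). Of 5475 genes at 2 hr, 62 had a lower ratio than *CDKN1A*, and at 4 hr 727 of 5971 had.

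*GADD45A* stood at 41.1 FPKM in 2U and 25.4 FPKM in 2T, and at 64.1 FPKM in 4U and 23.5 FPKM in 4T. Here too both treated values were below both untreated ones, with log2 ratios of -0.69 at 2 hr and -1.45 at 4 hr. *TP53I3* stood at 6.27 FPKM in 2U and 17.0 FPKM in 2T, and at 24.9 FPKM in 4U and 17.0 FPKM in 4T, so the low library was 2U and the treated values equalled each other to 3 digits. Its log2 ratio was 1.44 at 2 hr and -0.55 at 4 hr, and that of 4U over 2U, both untreated, was 1.99. With 1 library per condition these ratios have no replicate check and no test, and less RNA per cell cannot be told apart from fewer cells that make it. The 2 hr ratios also rest on columns whose gene counts differ from those the study lists. The 2U column held 10691 genes above 0 and 2T 8454, whereas the study lists more genes in 2T than in 2U. The 9550 genes above 0 in 4U and 9773 in 4T equal the study's counts.

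**Figure D3:**
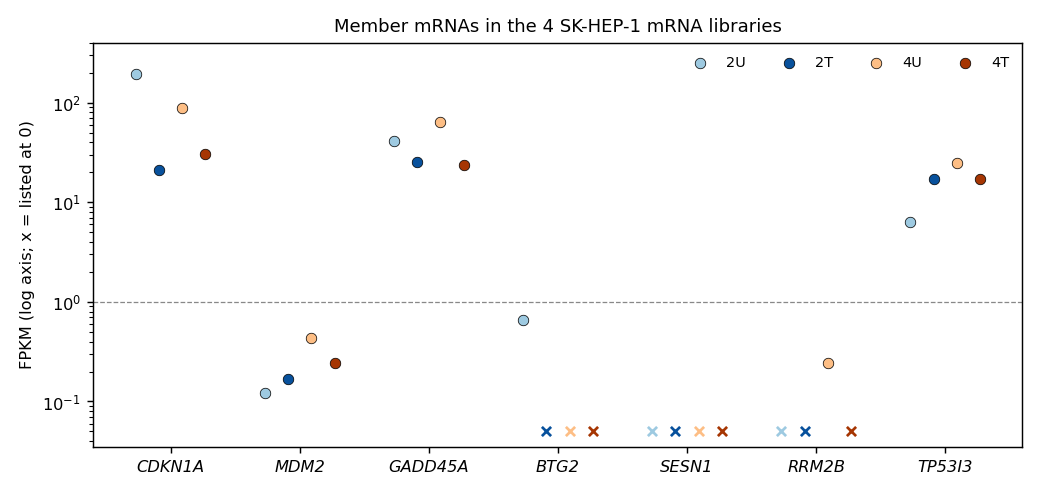
FPKM of the 7 member mRNAs in 2U, 2T, 4U and 4T on a log axis, 1 library per condition; crosses mark values listed at 0 and the dashed line 1 FPKM. CDKN1A was at 193 and 20.9 FPKM at 2 hr and at 89.1 and 30.7 FPKM at 4 hr, whereas MDM2, BTG2, SESN1 and RRM2B stayed under 1 FPKM.

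Read against the background, the mRNA members were few among many. At 2 hr 1 of the 3 members with a ratio was at least 2-fold lower and 1 higher, where 19.9% of all 5475 genes were lower and 23.5% higher. At 4 hr 2 of 3 were lower and 0 higher, where 28.2% of 5971 genes were lower and 16.6% higher. The median log2 ratio of all genes was 0.02 at 2 hr and -0.37 at 4 hr. Between the untreated libraries, 10.4% of 5800 genes were at least 2-fold lower in 4U than in 2U and 23.8% higher, a difference in which time and the making of the 2 hr and 4 hr columns cannot be told apart, since the low values of the columns differ as given below. Between 4T and 2T 5.78% were lower and 5.65% higher.

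*MDM2* was listed at 0.121 FPKM in 2U and 0.168 FPKM in 2T, and at 0.436 FPKM in 4U and 0.243 FPKM in 4T. *BTG2* was listed at 0.664 FPKM in 2U and at 0 in the other libraries, *RRM2B* at 0.241 FPKM in 4U and at 0 elsewhere, and *SESN1* at 0 throughout. A 0 in this table is a weak statement. *CD44*, named like the next 3 genes after values were seen, was listed at 0 in both 2 hr libraries and at 196 and 198 FPKM at 4 hr, and *ATM*, *EP300* and *APAF1*, which most cells use, were listed at 0 in all 4 libraries. The 4 hr columns held no value between 0 and 0.2 FPKM, while 2656 genes in 2U and 1173 in 2T had one.

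The paralogs of the members were more often measurable than the members themselves for the sestrin, BTG and reductase families. *GADD45B*, a stress-induced relative of *GADD45A*, stood at 47.0, 4.28, 21.2 and 5.22 FPKM in 2U, 2T, 4U and 4T, with log2 ratios of -3.46 and -2.02. *SESN2*, the stress-induced sestrin, stood at 12.7, 0.892, 5.41 and 0.688 FPKM in the same order, with ratios of -3.84 and -2.98. *BTG3*, another antiproliferative gene, stood at 16.4 FPKM in 2U, 14.7 FPKM in 2T and 21.2 FPKM in 4T, with 4T at 4.23-fold the level of 4U and ratios of -0.16 and 2.08. *RRM1*, the large subunit of ribonucleotide reductase, stood at 5.63, 11.7, 5.24 and 12.7 FPKM, with ratios of 1.06 and 1.28, and *RRM2*, the S phase small subunit, at 114, 72.2, 78.1 and 95.2 FPKM, with ratios of -0.65 and 0.28. The other 7 paralogs, *CDKN1B*, *CDKN1C*, *MDM4*, *GADD45G*, *BTG1*, *BTG4* and *SESN3*, had a 0 in at least 1 library, and the highest value among them was 1.46 FPKM for *CDKN1B* in 4U.

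**Figure D4:**
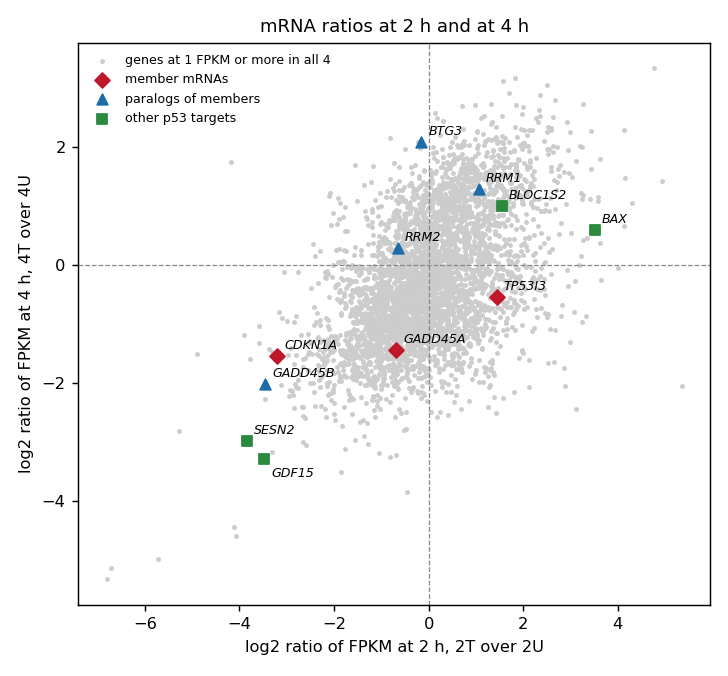
Log2 ratio of FPKM at 2 hr (horizontal) and at 4 hr (vertical) for genes of 1 FPKM or more in each library (gray), with 3 members (diamonds), 4 paralogs (triangles) and 4 other p53 targets (squares), of which SESN2 and BAX had a value under 1 FPKM in a library. CDKN1A lay at -3.21 and -1.54 and GADD45B at -3.46 and -2.02, in the lower left with SESN2 and GDF15, while TP53I3 lay at 1.44 and -0.55.

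Other known p53 targets split both ways. Of the 37 in the table, 20 had a ratio at 2 hr, of which 7 were at least 2-fold lower and 7 higher, with a median log2 ratio of 0.03. Over all genes 19.9% were lower and 23.5% higher. In 2U the 7 lower stood at 1.14 to 107 FPKM and the 7 higher at 0.407 to 5.03 FPKM. At 4 hr 6 of 19 were lower and 3 higher, against 28.2% and 16.6% of all genes, with a median of -0.39. *GDF15*, a secreted stress cytokine, stood at 96.4, 8.62, 65.2 and 6.69 FPKM in 2U, 2T, 4U and 4T. *BAX*, which opens the mitochondrial outer membrane in apoptosis, stood at 0.937, 10.7, 4.90 and 7.38 FPKM, so its 2 hr log2 ratio of 3.51 came with a low 2U library. *BLOC1S2*, a subunit of a lysosome-positioning complex, was higher with AcFBE at both times, at 1.01 and 2.96 FPKM at 2 hr and 2.15 and 4.28 FPKM at 4 hr. Of 21 regulators of p53, 3 of the 6 with a ratio were at least 2-fold higher at 2 hr and 4 of 6 at 4 hr, against 1 lower at each time. Among these, *CHEK1*, a DNA damage checkpoint kinase, stood at 0.431, 1.48, 0.421 and 1.53 FPKM, and *RPL5*, a ribosomal protein that can bind MDM2, at 1292, 3130, 1289 and 3306 FPKM, where reads of its processed pseudogenes may be counted with it. *CHEK2*, another checkpoint kinase, stood at 0.518, 1.20, 0.674 and 0.552 FPKM, and *RFWD2*, a ubiquitin ligase of p53, at 2.37, 0.805, 1.48 and 0.806 FPKM.

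Stress genes were mostly lower in the treated libraries, as *CDKN1A* and *GADD45A* were, and both of those are known to answer to stress signals other than p53 as well. Of 13 stress genes with a ratio at 2 hr 9 were at least 2-fold lower and 1 higher, and at 4 hr 12 of 14 were lower and 1 higher, with median log2 ratios of -2.10 and -2.31. Over all genes 19.9% were lower and 23.5% higher at 2 hr, and 28.2% and 16.6% at 4 hr. The summed level of the 15 genes was 3164 FPKM in 2U and 299.7 FPKM in 2T, and 1196 FPKM in 4U and 379 FPKM in 4T, most of it *HSPA1A* in 2U. Without *HSPA1A* the sums were 817 and 279 FPKM at 2 hr and 723 and 368 FPKM at 4 hr, and 2 of the 15 genes, *DDIT3* and *EGR1*, were listed at 0 in 2T. *FOS*, an immediate early gene, stood at 29.4, 0.193, 43.3 and 1.09 FPKM, and *HSPA1A*, the inducible heat shock protein whose reads cannot be separated from its near-identical copy *HSPA1B*, at 2347, 21.1, 473 and 11.9 FPKM. *ASNS*, asparagine synthetase, was the exception at 4 hr, at 3.97 FPKM in 4U and 12.4 FPKM in 4T. *MYC*, which is also listed among the miR-34 targets, stood at 5.14, 15.3, 55.0 and 11.6 FPKM. A link between the stress genes and the low treated values of *CDKN1A* was not tested.

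Genes repressed downstream of p21 lay on both sides of 0. p21 slows the cell cycle by holding back cyclin-dependent kinases, which lowers the genes below. Of 13 with a ratio, 4 were at least 2-fold lower and 2 higher at 2 hr, and 5 lower and 6 higher at 4 hr. *CDK1*, the mitotic kinase, stood at 4.04, 24.9, 4.78 and 27.0 FPKM and *CCNA2*, cyclin A, at 0.403, 5.09, 0.924 and 3.40 FPKM. *BIRC5*, survivin, stood at 85.2, 19.2, 82.0 and 23.9 FPKM, and *FOXM1*, a driver of mitotic genes, at 60.8, 18.5, 46.6 and 17.1 FPKM.

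**Figure D5:**
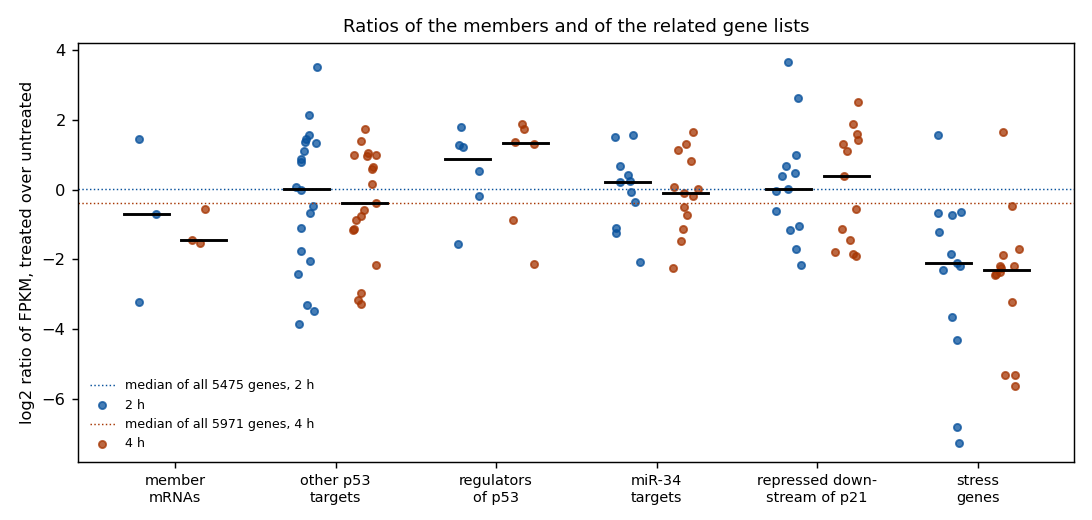
Log2 ratio of FPKM, treated over untreated, at 2 hr (blue) and 4 hr (brown) for the members and 5 related gene lists; points are genes with at least 1 FPKM in 1 library and above 0 in both, black lines are list medians and dotted lines the medians of all genes. Stress genes lay lowest, at medians of -2.10 and -2.31, while other p53 targets lay at 0.03 and -0.39, near all genes at 0.02 and -0.37.

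The sites that the miR-34a seed can pair with were looked up in the mRNAs. The 7 letters CACTGCC, the complement of the seed, were searched on the transcript strand of the 3′ UTR of the canonical transcript of each gene (GRCh37). None of the 7 mRNA members held the match in these windows, against 15.7% of 19403 3′ UTRs. Of 28 known miR-34 targets, 19 (67.9%) held it, at a median UTR length of 1896 bases against 1068 bases for all. The list may hold genes first named for such matches, so this share is a description and not a test. Matches from the targets named here are shown with the match in capitals.
*MET*, chr7:116436215-116436236, plus strand: tccaatggttttttCACTGCCt
*MET*, chr7:116438329-116438350, plus strand: aattagatacttgtCACTGCCt
*AXL*, chr19:41765839-41765860, plus strand: ggatccaagctaagCACTGCCa
*MAP2K1*, chr15:66783512-66783533, plus strand: tagccagagcccttCACTGCCa

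The miR-34 targets showed no common direction. Of 11 with a ratio at 2 hr 3 were at least 2-fold lower and 2 higher, and of 13 at 4 hr 3 were lower and 3 higher, with medians of 0.22 and -0.09 against 0.02 and -0.37 over all genes. *MET*, the receptor of hepatocyte growth factor, held 2 matches and stood at 3.06, 4.89, 1.41 and 3.49 FPKM in 2U, 2T, 4U and 4T. *AXL*, a receptor tyrosine kinase, held 1 and stood at 118, 50.1, 102 and 47.2 FPKM, lower in both treated libraries. *MAP2K1*, the kinase MEK1, held 1 and stood at 7.83, 1.84, 4.40 and 1.59 FPKM, with log2 ratios of -2.09 and -1.47. *YY1*, a transcription factor, held none and stood at 0.781, 2.21, 0.921 and 2.01 FPKM.

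By the distance between log2 ratios at 2 and 4 hr, the genes most like *CDKN1A* among 4074 of 1 FPKM or more in each library were *POMZP3* (ratios -3.31 and -1.48), *UBE2S*, a ubiquitin-conjugating enzyme of the anaphase-promoting complex (-3.37 and -1.42), and *CSDA*, a cold shock domain protein (-2.97 and -1.52).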

How the data were processed

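Small RNA and mRNA libraries were compared by condition as labelled. The authors deposited whole read counts per known miRNA (at least 2 reads), after trimming with cutadapt and mapping with Bowtie 0.12.7 per the submitters' processing notes, and FPKM per gene from Cufflinks (hg19/GRCh37). mRNA libraries were made by a modified single-cell amplification protocol. Counts were divided by the quality reads that the study lists for each library, its own scaling. The 196 miRNAs listed in both SK-HEP-1 tables with a mean of at least 1 RPM were tested in R 4.3.3 by edgeR 4.0.16 (quasi-likelihood test, Benjamini-Hochberg, threshold 0.05), which was also tested on simulated data; DESeq2 1.42.0 was an alternative. Batch was a block: deviations of the same batch correlated at 0.423 to 0.715 between conditions. Batch is at once sequencer and culture. The reads behind each FPKM value are unknown, though the study lists read totals per mRNA library. Fold changes of FPKM used no pseudocount. Intervals hold for counting error alone, as PCR copies could not be told from separate molecules. The p-values measure how far differences between conditions disagreed between the 2 batches, each 1 culture on 1 sequencer. Over both times they also take in how far the change with AcFBE differed between the times.

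No column of per-sample values was left unmatched. The members and lists were chosen with earlier results of these data known. Named were all members, relatives and family miRNAs, from each other list the 2 genes with the highest and the 2 with the lowest mean ratio, and the 3 nearest in pattern. A gene of the lists is not reported here.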

Additional observations from a re-analysis of the deposited data

Results flagged for a closer look

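The sign differed between groups for 3 results under the same contrast. In SK-HEP-1, miR-34a was lower in both treated libraries at 2 hr and higher in both at 4 hr, and the 4 hr change exceeded the 2 hr change by 2.19 on the log2 scale, which did not pass in edgeR (adjusted p = 0.954). At 2 hr, miR-34a of BNL CL.2 exceeded the mean of the SK-HEP-1 batches by 2.37 on the log2 scale, 1.05 against -1.32, a difference that was not tested. Scaled to miRNA counts the gap was 0.75, and the SK-HEP-1 mean was 0.39. The log2 ratio of *TP53I3* was 1.44 at 2 hr and -0.55 at 4 hr, a difference of -1.98 that was not tested, with 1 library per condition and 2U as the low library.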

How the results depend on the processing

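Scaling moved all miRNAs together. Over both times the median log2 fold change was -1.37 with quality reads, 0.10 with the sum of miRNA counts and -0.10 with TMM, and miR-34a lay 1.10, 1.08 and 1.10 above it. With the sum of miRNA counts as the scale, its log2 fold change was 0.22 at 2 hr and 1.18 over both times, and with TMM it was 0.997 over both times, while at 4 hr it stayed positive in all 15 alternatives. miR-34c-5p over both times was 0.91 and 0.73 with the same scalings, and at 2 hr it was -0.27 with no replicate block. Without the replicate block miR-34a was -1.31 at 2 hr and 0.68 at 4 hr, and the count of calls stayed at 0. Leaving out 1 library at a time put miR-34a at -1.90 to -0.59 at 2 hr, 0.10 to 1.98 at 4 hr and -0.81 to 0.36 over both times, positive without 2T of the first batch (0.21) or 2U of the second (0.36), and miR-34c-5p at 2 hr at -0.44 to 2.09 (-0.31 without 2T and -0.44 without 2U of the first batch); calls over both times ran from 0 to 1, the 1 without 4U of the second batch. Over the alternatives the adjusted p of miR-34a ran from 0.166 to 0.994 at 2 hr and from 0.375 to 0.980 at 4 hr. Over both times 100 miRNAs passed when scaled to reads after the tRNA filter, 95 with DESeq2, 20 with a filter of mean 10 RPM and 60 with each pair of libraries as the block; DESeq2 called 6 at 2 hr and 6 at 4 hr. miR-34c-5p had no value under the 10 RPM filter. At a 1.5-fold threshold 2 members were lower at 2 hr in place of 1. The 4 hr ratio of BNL CL.2 was 0.53 and 0.60 when scaled to miRNA counts or to reads after the tRNA filter, and its 2 hr gap to SK-HEP-1 was 0.75 with miRNA counts, scalings chosen after seeing the data. The cause of these shifts was not tested.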
